A study of Mus musculus with 3 samples.

Results

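The 7 genes described here build and supply the glycine synapse. They are the receptor subunit genes Glra1, Glra2, Glra3 and Glrb, the glycine transporter genes Slc6a5 and Slc6a9, and Gphn, the gene of the scaffold protein gephyrin. They were chosen by name, out of 21631 protein-coding genes on chromosomes 1 to 19 and X. Their accessible regions (peaks) are those overlapping the gene span or the 5 kb on either side, called the window below. The windows held 306 of the 622754 peaks of the sciATACv1 library, 429 of the 850991 of sciATACv2 and 278 of the 512023 of sciATACv3. These are 0.0491%, 0.0504% and 0.0543% of each list. The libraries, called v1, v2 and v3 from here on, come from whole brain of C57BL6 mice, with 1 library per version of the preparation, a combinatorial indexing ATAC-seq in which the PCR index is added in nanowells. In this assay the transposase Tn5 inserts barcoded adapters into open chromatin. The files give the position of each peak and no height, read count or cell, so sequencing depth is unknown, and brain regions and cell types cannot be separated. No treatment or genotype difference is given, and the sources used here state neither how many animals were used nor their sex or age. With 1 library per version no test between versions could be run. Intervals given with a value are 95% intervals for counting error only.

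Glycine is a fast inhibitory transmitter, best known from the spinal cord, the brainstem and the retina. Its receptors are chloride channels assembled from alpha subunits and the beta subunit. The beta subunit binds gephyrin, which holds the receptors under the nerve terminal. The transporter GlyT2, encoded by Slc6a5, returns glycine to the terminals of glycinergic neurons, and GlyT1, encoded by Slc6a9 and found mainly in glia, clears it from the synapse. In whole brain, neurons that release glycine are a minority, whereas gephyrin and the beta subunit are found in many neurons, since gephyrin also anchors GABA-A receptors.

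The sequences before the gene starts are shown first because the first listed start of each member in the RefSeq promoter table (build GRCm38.p6, the same as mm10) lay under a peak in all 3 libraries. The table matched 6 of the 7 members, all but Glra1. In each line the bases run 5′ to 3′ on the strand of the gene. Capitals mark letters matching 1 of 6 motifs, searched on both strands: the GC box GGGCGG, the CCAAT box CCAAT, the TATA box TATAAA, the cAMP response element TGACGTCA, the 10-letter core of the NRF1 site and the E-box CAGCTG. For Glrb (chr3:80913661-80913910, minus strand), Glra3 (chr8:55940168-55940417, plus strand) and Slc6a9 (chr4:117835008-117835257, plus strand) the 250 bases before the start are given, which lie outside the gene span.
Glrb: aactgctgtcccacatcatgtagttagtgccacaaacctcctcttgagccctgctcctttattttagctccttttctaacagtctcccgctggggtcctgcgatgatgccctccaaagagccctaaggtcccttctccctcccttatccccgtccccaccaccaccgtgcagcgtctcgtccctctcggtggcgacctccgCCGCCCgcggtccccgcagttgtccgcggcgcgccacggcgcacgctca
Glra3: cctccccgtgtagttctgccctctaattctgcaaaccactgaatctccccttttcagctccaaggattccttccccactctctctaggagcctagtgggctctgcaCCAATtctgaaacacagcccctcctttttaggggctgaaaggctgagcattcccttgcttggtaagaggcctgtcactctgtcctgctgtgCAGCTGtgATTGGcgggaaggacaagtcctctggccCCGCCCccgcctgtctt
Slc6a9: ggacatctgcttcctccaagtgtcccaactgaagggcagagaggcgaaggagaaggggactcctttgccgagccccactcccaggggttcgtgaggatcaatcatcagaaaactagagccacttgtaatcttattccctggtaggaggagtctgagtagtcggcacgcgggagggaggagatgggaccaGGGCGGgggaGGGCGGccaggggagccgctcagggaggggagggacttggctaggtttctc
The 250 bases before the starts of Glra2, Slc6a5 and Gphn lie inside the annotated gene span, so only 30 bases are shown for each match, or, for Slc6a5, which held none of the 6 motifs, the 30 bases before the start. They are Gphn at chr12:78226553-78226582 (plus strand), Glra2 at chrX:165327478-165327507 and then at chrX:165327412-165327441 (minus strand), and Slc6a5 at chr7:49910269-49910298 (plus strand).
Gphn: cgcggcccgactCCGCCCcctccgcggacc
Glra2, GC box: tctctccgacccCCGCCCcaagctactgaa
Glra2, TATA box: cgagtgctgaaaTTTATAggctgggtaaga
Slc6a5: gcaaacccagcctttcccggggagatatag
The GC box occurred once before Glra2, Glra3, Glrb and Gphn and at 2 places before Slc6a9, and 43.2% of 17268 protein-coding promoters of the same length held it. The CCAAT box was found at 2 places before Glra3 (36.8% of promoters hold it), the E-box at 1 place before Glra3 (11.8%) and the TATA box at 1 place before Glra2 (12.5%). The TATA box match lay in reverse orientation to Glra2, as TTTATA, and the shares of promoters count both orientations. The cAMP response element (2.01% of promoters) and the NRF1 site (1.07%) matched before none of the 6. No motif overlapped another in these windows. CpG dinucleotides, known to be frequent in the promoters of broadly used genes, ranged widely. The 250 bases before Gphn held 34 of them, more than 95.8% of promoters. Those before Glrb held 20 (above 76.6% of promoters), those before Slc6a5 held 11, before Slc6a9 9, before Glra2 8 and before Glra3 4, against a median of 10. The scaffold and the beta subunit thus had the most CpG-rich starts of the 6, and Glra3 the poorest.

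All 7 members had a peak within 1 kb of the gene start in each library, using for Glra1 the ends of its span. Among all protein-coding genes the shares with one were 77.6% (v1), 82.3% (v2) and 77.3% (v3), and 74.5% had one in all 3. For the 6 members with a listed start, a peak lay over the start itself in every library, against 69.5% of 17274 listed starts in v1, 75.1% in v2 and 70.2% in v3. The upper end of the Glra1 span, at position 55608198 of chromosome 11, lay under a peak of 719 bp in v1, 708 bp in v2 and 1077 bp in v3. The lower end had a peak at 565 bp in v1 and 263 bp in v2, and none nearer than 1408 bp in v3.

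The peaks over the starts differed in width among the members, and the widest belonged to the transporter of glycinergic neurons. The peak over the first start of Slc6a5, at chromosome 7, 49907476 to 49910864 in v1, spanned 3389 bp there, 3113 bp in v2 and 2802 bp in v3. The v1 peak was wider than 99.96% of all v1 peaks, and than 99.8% of the v1 peaks that lie over a listed start. In v2 and v3 the peak exceeded 98.7% and 92.7% of the peaks over starts. It lay mostly before the start and inside the annotated span. In v3 a further peak lay just upstream of it, so the smaller v3 width does not mean a shorter accessible stretch. From 49906500 to 49910872, peaks covered 3389 bp in v1, 3113 bp in v2 and 4244 bp in v3. A later start of Slc6a5, at 49911700, lay under a peak of 1139 bp in v1 and 2108 bp in v3, and 54 bp outside the nearest peak in v2.

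The other transporter gene, Slc6a9, had a peak of 2362 bp over its first start in v1, 2360 bp in v2 and 2520 bp in v3, and Gphn one of 2168, 1992 and 2351 bp. These were also wider than the median peak over a start, which was 1360 bp in v1, 1422 bp in v2 and 1755 bp in v3. The receptor subunit genes with a listed start had narrower ones than the transporter genes and Gphn. Against the median, those of Glrb and Glra2 were wider in v1 and v3 and that of Glra3 in v1, and the rest were narrower. The Glrb peak measured 1595, 1145 and 1983 bp, the Glra2 peak 1487, 1404 and 2028 bp, and the Glra3 peak 1418, 1307 and 1454 bp. Slc6a9 has later listed starts at 117849350 and 117855547 of chromosome 4, and each also lay under a peak in all 3 libraries. The former lay under 1486 bp in v1, 1586 bp in v2 and 500 bp in v3, the latter under 1093, 1416 and 2096 bp. Further v3 peaks closely followed the one of 500 bp. From 117848942 to 117850551, peaks covered 1486 bp in v1, 1586 bp in v2 and 1527 bp in v3.

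**Figure D1:**
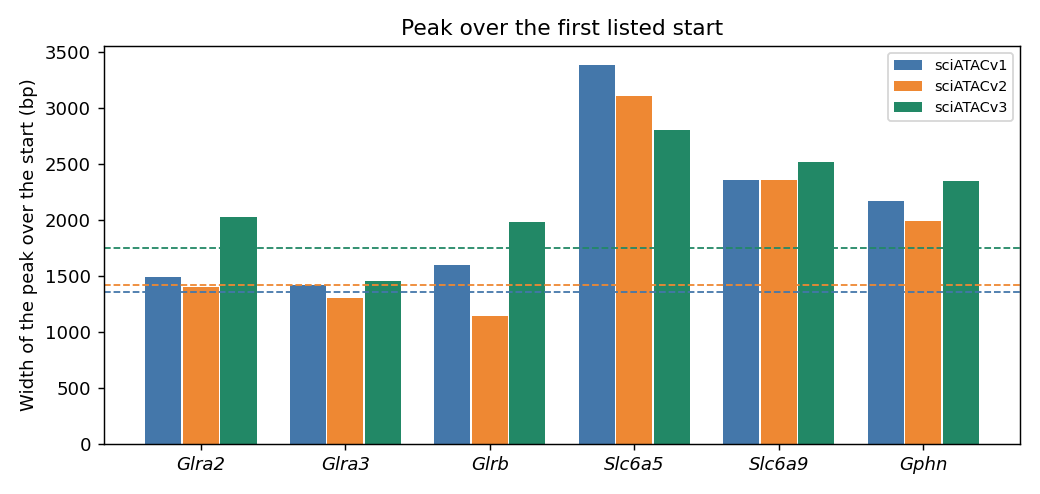
Width in bp (vertical axis, from 0) of the peak over the first listed start of 6 members in the v1, v2 and v3 libraries (bars, 1 library each). Dashed lines are the median width of peaks over protein-coding starts in the library of the same colour. Slc6a5 stands highest in all 3 libraries, from 2802 to 3389 bp.

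Over the whole window the members differed in how densely peaks lay. Peaks per 100 kb of window, a level that can be compared between genes of different length, were highest in Glrb in every library, where v1 had 47.5 (33.6 to 65.1), v2 57.5 (42.1 to 76.6) and v3 again 47.5 (33.6 to 65.1). The median protein-coding window had 29.7, 42.6 and 26.6. Lowest in every library was Glra2, where v1 had 11.01 (6.98 to 16.5), v2 22.0 (16.1 to 29.4) and v3 5.75 (2.97 to 10.04). The intervals of Glrb and Glra2 did not overlap in any library. Between members next to each other in the order of density, the interval of the ratio of their densities included 1 in 17 of 18 pairs over the 3 libraries. The exception was Glra3 over Glra2 in v1, at 1.73 (1.004 to 3.04).

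Among the alpha subunits, Glra1 encodes the main adult subunit of the spinal cord and brainstem, the gene of the mouse startle mutants spasmodic and oscillator. Its window (span at chromosome 11, 55514239 to 55608198) had 20 v1 peaks, 26 v2 peaks and 18 v3 peaks, or 19.2, 25.01 and 17.3 per 100 kb, which is denser than 33.1%, 26.2% and 32.0% of protein-coding genes. Its widest peak was not at an end of the span. It lay at chromosome 11, 55532648 to 55534992 in v1, and had 2345 bp in v1, 2412 bp in v2 and 2384 bp in v3, all overlapping one another and inside the span of the long noncoding RNA gene Gm12236. Of the window's peaks, 7 from v1, 8 from v2 and 3 from v3 overlapped the span of a noncoding RNA gene, so they cannot be assigned to Glra1 alone.

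Glra2, the alpha subunit that dominates before birth, lies on the X chromosome at 165129017 to 165327867. Its window had 23 v1 peaks, 46 v2 peaks and 12 v3 peaks. The v2 count was the highest and the v3 count the lowest. Its density exceeded that of 21.6%, 23.7% and 15.7% of all protein-coding genes, but of 53.0%, 55.0% and 41.2% of the 966 genes on X. The low level of Glra2 was therefore near the middle of its own chromosome, which held 1.97% of all v1 peaks, 2.59% of v2 peaks and 2.17% of v3 peaks. The peak over its start was the widest of its window in each library. Peaks covered 6.07% of the window in v1, 13.0% in v2 and 4.45% in v3.

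Glra3, an alpha subunit known from the dorsal horn, the retina and the forebrain, lies at chromosome 8, 55940418 to 56130070. Its window had 38 v1 peaks, 60 v2 peaks and 20 v3 peaks, or 19.0, 30.1 and 10.02 per 100 kb, the v3 library again the lowest and v2 the highest. Its density exceeded that of 32.7%, 32.1% and 22.0% of protein-coding genes. The widest peak lay inside the gene, at 55997177 to 55998859 in v1 (1683 bp) and 55997171 to 55998848 in v3 (1678 bp). In v2 the widest was a different one, at 55987541 to 55989165 (1625 bp). Both places held peaks of all libraries. From 55997171 to 55998933, peaks covered 1683 bp in v1, 1205 bp in v2 and 1678 bp in v3. From 55987541 to 55989165 they covered 500, 1625 and 776 bp.

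Glrb, the beta subunit gene (chromosome 3, 80843598 to 80913660), had 38 v1 peaks, 46 v2 peaks and 38 v3 peaks. It was denser than 82.1%, 80.3% and 90.6% of protein-coding genes, and peaks covered 34.5% of its window in v1, 46.9% in v2 and 47.1% in v3. Its widest peak lay at 80890627 to 80892413 in v1 (1787 bp) and at 80893086 to 80895512 in v2 (2427 bp). In v3 the widest lay beyond the 3′ end of the gene, at 80839338 to 80841950 (2613 bp). Each of these places held peaks of all 3 libraries. From 80839338 to 80842309, peaks covered 1000 bp in v1, 2769 bp in v2 and 2613 bp in v3. From 80890183 to 80892997 they covered 2287, 2719 and 2656 bp, and from 80893007 to 80895537 1805, 2427 and 2414 bp.

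Slc6a5 (chromosome 7, 49906984 to 49963864) had 22 v1 peaks, 21 v2 peaks and 16 v3 peaks, or 32.9, 31.4 and 23.9 per 100 kb. It was denser than 55.6%, 33.6% and 44.5% of protein-coding genes. The median width of its peaks was 500 bp (v1), 737 bp (v2) and 1172 bp (v3), against 500, 500 and 726 bp over all peaks of each library. Slc6a9 (chromosome 4, 117835258 to 117869305) held 13, 23 and 16 peaks, or 29.5, 52.2 and 36.3 per 100 kb, with the fewest in v1. Its widest peak in v3 spanned 4331 bp, from 117869123 to 117873453, wider than 99.9% of v3 peaks. It covers the downstream end of Slc6a9 and overlaps the genes Ccdc24 and B4galt2. The widest v1 peak of the window (2633 bp) lay past that end and overlaps the same neighbours. Of the peaks of the Slc6a9 window, 3 in v1, 4 in v2 and 1 in v3 overlapped the span of another gene, and their part in the counts of Slc6a9 cannot be told apart from that of the neighbours.

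Gphn, the longest member (467448 bp at chromosome 12, 78217325 to 78684772), had 152 v1 peaks, 207 v2 peaks and 158 v3 peaks, the highest count of the members in each library. Per length it lay near the middle of all genes, with 31.8, 43.4 and 33.1 peaks per 100 kb, denser than 53.9%, 51.3% and 64.0% of protein-coding genes. In v1 its widest peak was the one over the start. In v2 the widest lay far inside the gene, at 78580843 to 78583759 (2917 bp), and in v3 at 78253516 to 78256281 (2766 bp), over the pseudogene Gm18899. Peaks also covered 1000 bp in v1 and 1808 bp in v3 at the former place, and 1500 bp in v1 and 1981 bp in v2 at the latter.

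**Figure D2:**
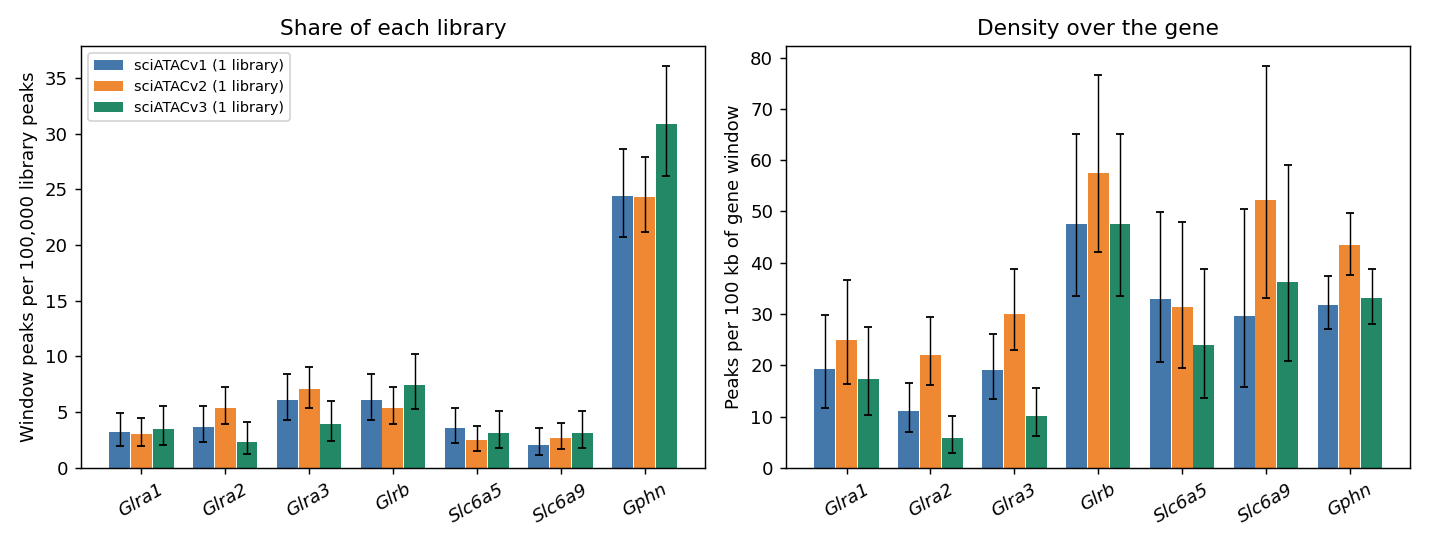
Left, window peaks per 100000 peaks of the library (vertical axis, from 0), and right, peaks per 100 kb of window, for the 7 members in v1, v2 and v3. Bars are single libraries and lines are 95% Poisson intervals. Gphn leads by share, whereas Glrb leads by density and Glra2 is lowest.

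The comparison between versions used each gene's share of all peaks of a library, so that the larger v2 list does not raise every gene. For the 7 members together the share ratio was 1.03 for v2 over v1 (0.884 to 1.19), 1.10 for v3 over v1 (0.936 to 1.30) and 1.08 for v3 over v2 (0.923 to 1.26). The median protein-coding gene with at least 10 peaks summed over the pair stood at 0.957, 1.06 and 1.11, inside these intervals. Gphn held 152 of the 306 member peaks in v1, 207 of 429 in v2 and 158 of 278 in v3. Without it the ratios were 1.05, 0.948 and 0.898, so both ratios with v3 turned below 1. All 3 pairs draw on the same 3 libraries and are not independent.

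Between v2 and v1, 0 of 7 members passed a share ratio of 1.5 in either direction. Of 15319 protein-coding genes, 10% were above 1.5 and 6.29% below its reciprocal of 0.667. The members ranged from Slc6a5 at 0.699 (0.365 to 1.33) to Glra2 at 1.46 (0.869 to 2.53). Set against the peaks of its own chromosome, Glra2 had a ratio of 1.12 (0.663 to 1.93). Gphn, with the most peaks, stood at 0.997 (0.804 to 1.24). All 7 intervals included 1.

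Between v3 and v1, Glra2 and Glra3 were lower in v3, at 0.635 (0.288 to 1.33) and 0.640 (0.353 to 1.13), and 0 members were above 1.5. Of 13828 genes, 6.13% were below 0.667 and 13.3% above 1.5. Both intervals included 1, so neither difference was beyond counting error. Slc6a9, the GlyT1 gene, had the highest ratio at 1.497 (0.675 to 3.38). Without the peaks over other gene spans it stood at 1.82, past the limit of 1.5. Gphn stood at 1.26 (1.01 to 1.59), with an interval just above 1 but including the median gene at 1.06. Glrb was at 1.22 (0.755 to 1.96), Glra1 at 1.09 (0.546 to 2.18) and Slc6a5 at 0.885 (0.434 to 1.76).

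Between v3 and v2 the same pair of alpha subunit genes was lower in v3. Glra2 had a share ratio of 0.434 (0.209 to 0.832), lower than all but 1.90% of 15107 genes, and Glra3 one of 0.554 (0.316 to 0.932), lower than all but 3.82%. Of these genes, 8.90% were below 0.667 and 13.7% above 1.5. The remaining members were between 1.15 and 1.37. Glra1 had 1.15 (0.594 to 2.18), Slc6a9 1.16 (0.571 to 2.29), Slc6a5 1.27 (0.618 to 2.55), Gphn 1.27 (1.02 to 1.57) and Glrb 1.37 (0.869 to 2.16). Against its own chromosome, Glra2 stood at 0.516 (0.249 to 0.990) and among 411 genes on X was above 6.33% of them. The intervals of both alpha subunit genes lay below 1, for counting error and single libraries only. Whether the versions themselves differ at these genes cannot be told from 1 library each.

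The lower counts of Glra2 and Glra3 in v3 lay mostly in narrow peaks. Peaks of exactly 500 bp, the minimum width in the files, numbered 20 in v1, 34 in v2 and 5 in v3 over Glra2, and 27, 39 and 8 over Glra3. Wider peaks numbered 3, 12 and 7 over Glra2 and 11, 21 and 12 over Glra3. With wider peaks alone, Glra2 in v3 over v1 turned to 1.97, and in v3 over v2 Glra2 stood at 0.786 and Glra3 at 0.770, both within the 1.5-fold range. These ratios rest on few peaks, and no intervals were computed for them. Over all peaks, those of 500 bp made up 59.8% (v1), 53.1% (v2) and 42.2% (v3). The part of this library-wide difference in width in the result was not tested.

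**Figure D3:**
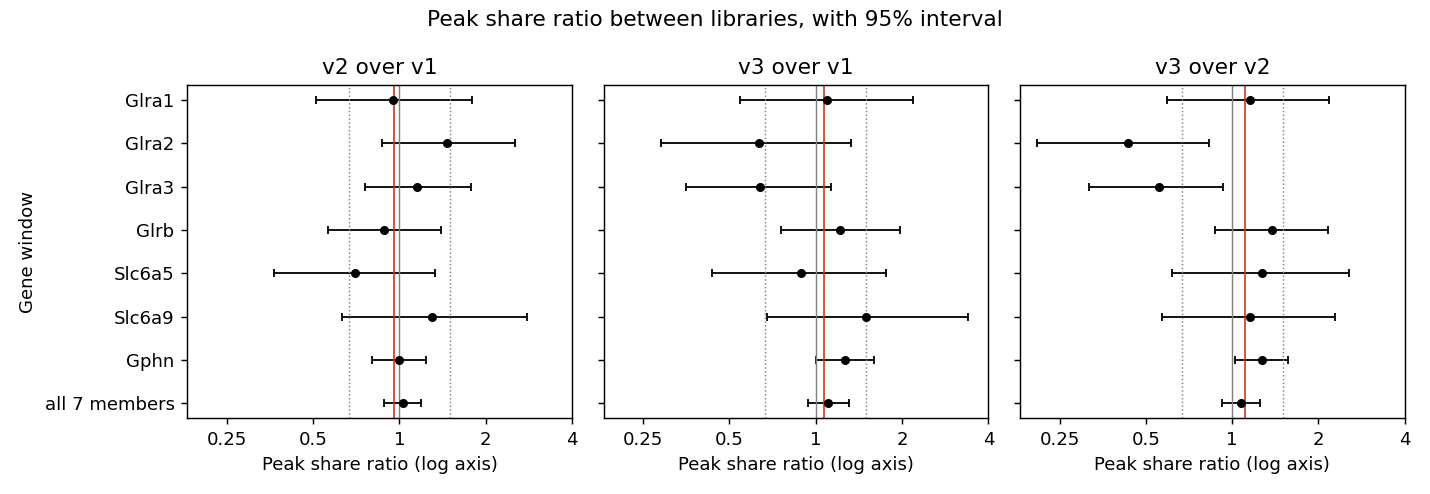
Peak share ratio of each member and of the 7 together for the 3 pairs of libraries (points on a log axis, with exact 95% intervals for counting error). Grey lines mark 1 and the 1.5-fold limits, and the red line the median protein-coding gene. Glra2 and Glra3 lie left of 1 in both pairs with v3, and in v3 over v2 their intervals end below 1.

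Merging the peaks of the 3 libraries wherever they overlapped by at least 1 bp gave 449 regions over the 7 windows. Of these, 168 (37.4%, 32.9 to 42.1) had a peak in all 3 libraries, against 46.6% of all 490738 regions over protein-coding windows and 39% of the 825954 regions anywhere. Glrb had 25 of 41 regions in all 3 libraries (61.0%, 44.5 to 75.8) and Slc6a9 had 11 of 18 (61.1%, 35.7 to 82.7). Gphn had 90 of 225 (40.0%), Glra1 12 of 31 (38.7%) and Slc6a5 8 of 21 (38.1%).

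At the low end were Glra3 with 14 of 62 (22.6%, 12.9 to 35.0) and Glra2 with 8 of 51 (15.7%, 7.02 to 28.6). Both intervals lay below the 46.6% of regions over protein-coding windows. Among the 11225 genes with at least 10 regions, these shares exceeded those of 6.82% and 2.24% of genes. For Glra2 the comparison with its own chromosome is closer, since 31.5% of X regions over protein-coding windows were found in all 3 libraries. Of the 51 Glra2 regions, 26 were found in v2 alone, which is 51.0% against 34.5% on X and 21.2% over all protein-coding windows. Of the 62 Glra3 regions, 22 (35.5%) were found in v2 alone. A further 19 (30.6%) were found in v1 and v2 and not in v3, a larger share than in 96.5% of genes, where the median was 9.84%.

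The regions found in all 3 libraries differed in width and place among the members. Over Glra2, 1 was at the start (2147 bp) and the other 7 were between 515 and 1058 bp wide and inside the gene. Over Glra3 the start region (1456 bp) was joined by regions such as chromosome 8, 55997171 to 55998933 (1763 bp), and 56062620 to 56064247 (1628 bp). Over Slc6a5 they ran along the gene and were between 581 and 5370 bp wide, the widest being those at chromosome 7, 49906500 to 49910872 (4373 bp) and 49911031 to 49916400 (5370 bp). Over Glrb they also ran along the gene, among them chromosome 3, 80883522 to 80887562 (4041 bp), over the pseudogene Gm18545.

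**Figure D4:**
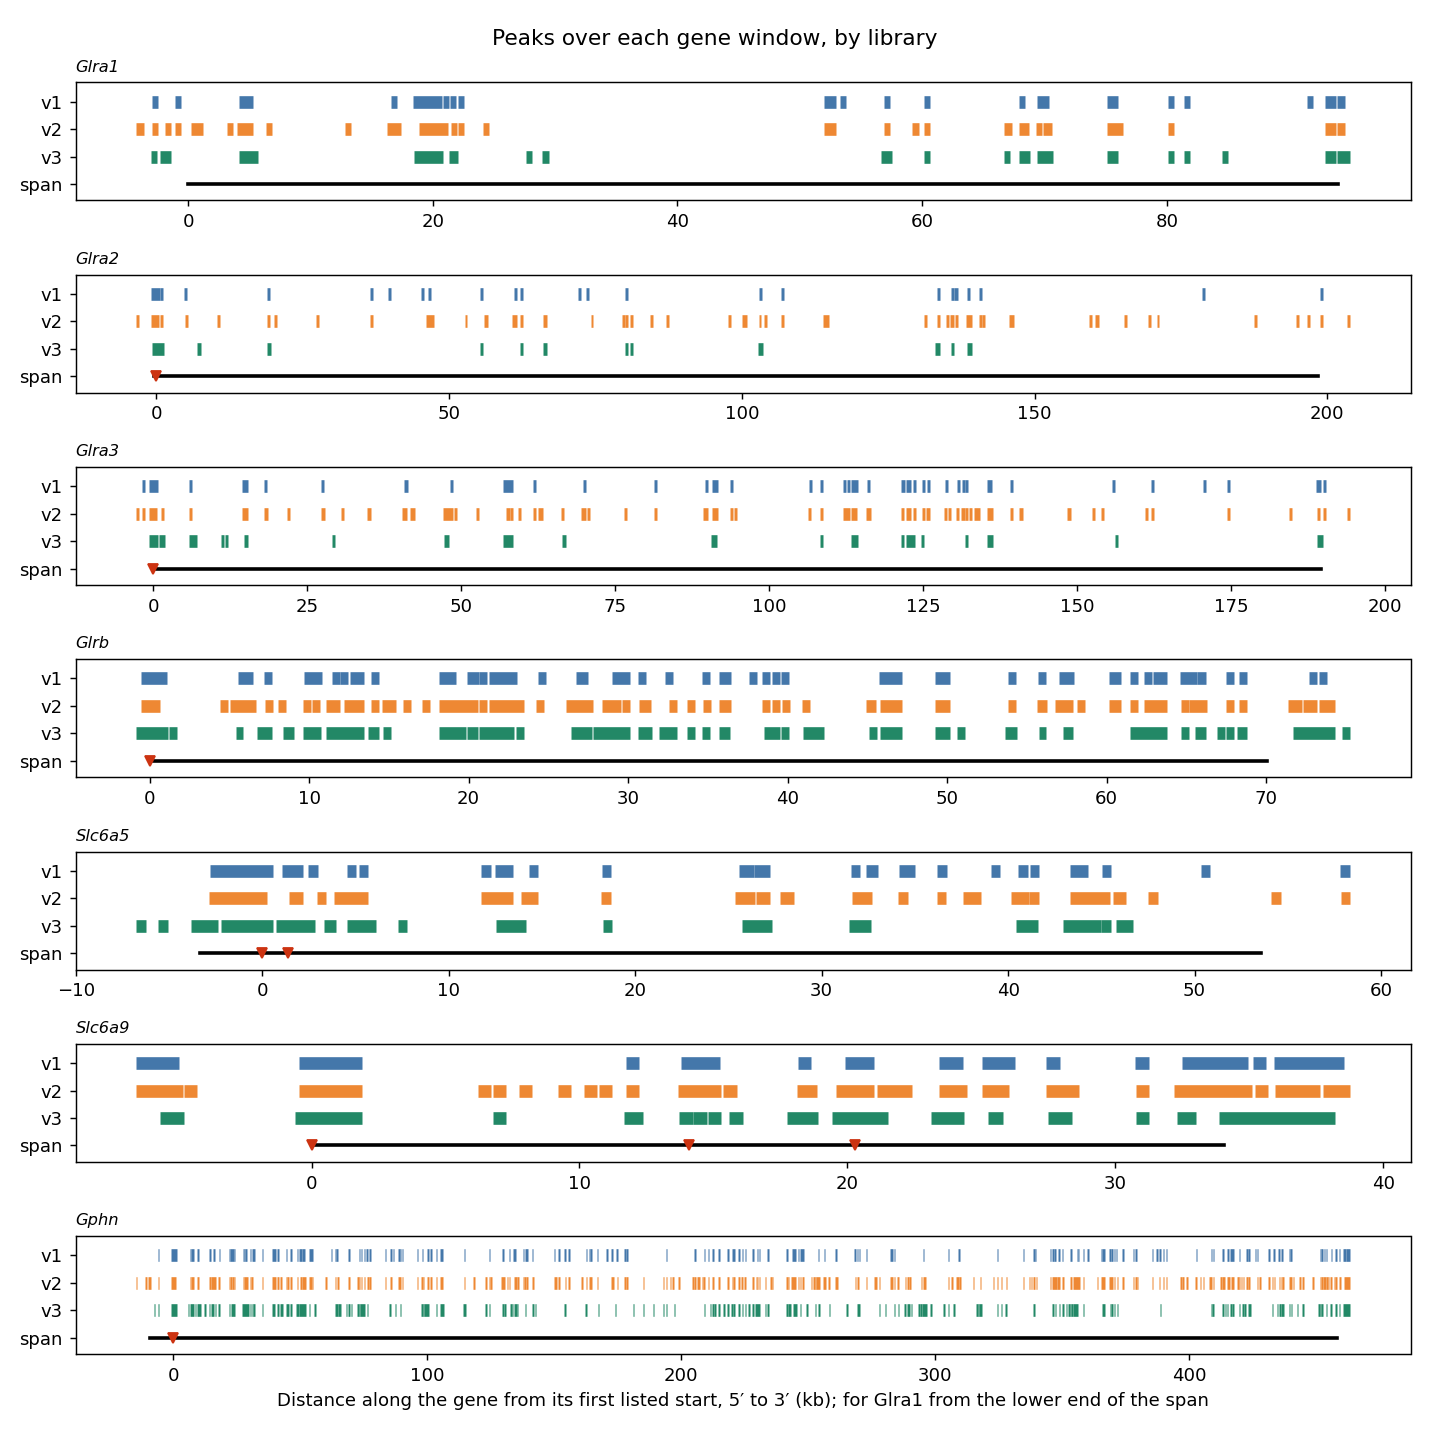
Peaks of the v1, v2 and v3 libraries (coloured bars, width to scale) over each member, by distance in kb from the first listed start in the direction of transcription, for Glra1 from the lower end of the span. Black lines are gene spans and red triangles listed starts. Peaks crowd Glrb, while Glra2 and Glra3 are sparse in v3.

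**Figure D5:**
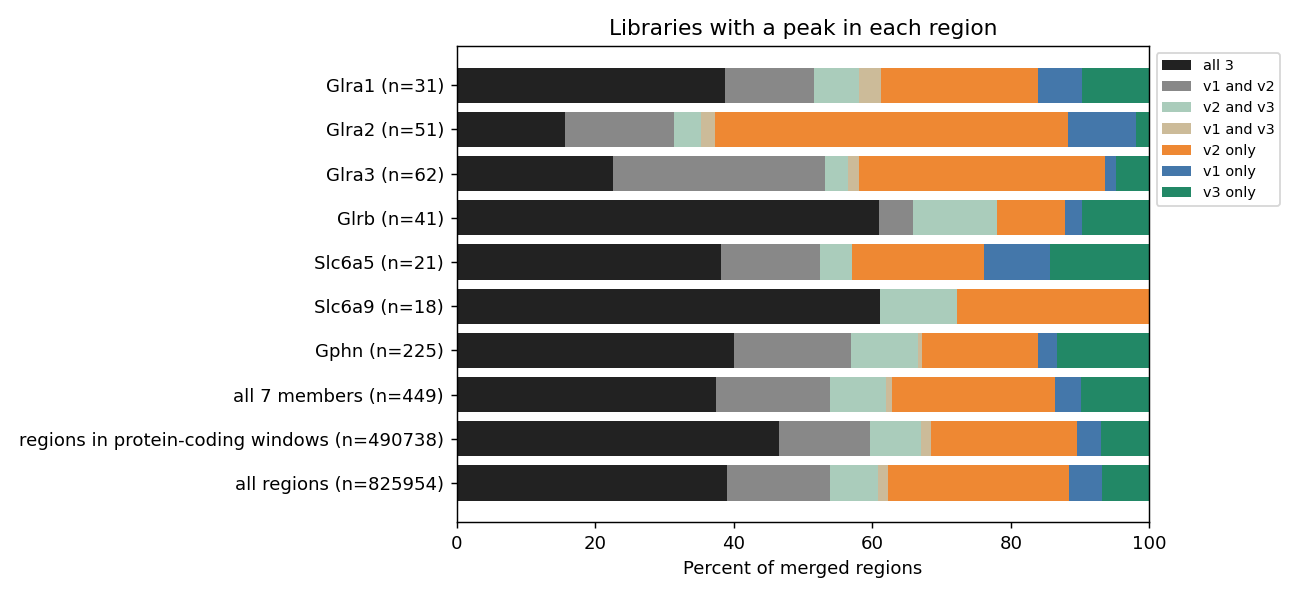
Share of merged regions (horizontal axis, percent) by the libraries that had a peak in them, for each member, the 7 members together and 2 backgrounds. Black, the regions in all 3 libraries, runs from 15.7% in Glra2 to 61.1% in Slc6a9.

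Along the gene, the share of peaks near the start was close to that of long genes when all peaks were counted. Over the 6 members with a listed start, 21.2% of peaks in the span (16.5 to 26.5) lay in the first 20% of the gene in v1, and 18.6% (14.9 to 22.9) and 24.2% (19.1 to 29.98) did so for v2 and v3. In genes of at least 50 kb, a length that Slc6a9 (34048 bp) does not reach, the same shares were 18.8%, 18.6% and 19.8%, inside these intervals. With peaks wider than 500 bp alone, the members' shares were 28.9% (19.8 to 39.4) for v1 and 30.1% (22.4 to 38.6) for v3. For v2 the share was 21.1% (14.9 to 28.4). The other genes had 19.5% (v1), 19.1% (v2) and 20.1% (v3), below the intervals of v1 and v3. These intervals treat the peaks of 6 genes as independent. Gphn alone gave 149 of the 274 peaks of any width in v1 and 156 of 252 in v3. The shares of wider peaks without Gphn were not computed. Slc6a5 had the highest share of the 6 in v3, with 6 of 14 peaks (42.9%, 17.7 to 71.1), and Slc6a9 the lowest, with 1 of 14 (7.14%, 0.181 to 33.9).

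Most genes around the glycine synapse had a peak at the start. So did 77.6% (v1), 82.3% (v2) and 77.3% (v3) of all protein-coding genes. Among genes for clustering and the inhibitory synapse, 7 of 8 were found in the gene table by symbol (all but Nlgn4l), and all 7 had a peak at the start in each library. Dlg1, a scaffold protein gene, had 125, 139 and 114 peaks in the v1, v2 and v3 lists. In v2 over v1 0 of 7 passed 1.5 in either direction. In v3 over v1 1 of 6 was above it (Insyn1, at 1.52, 0.540 to 4.43) and 0 below, and in v3 over v2 0 of 6 passed it. Among all protein-coding genes with enough peaks, 10%, 13.3% and 13.7% were above 1.5 in these pairs, and 6.29%, 6.13% and 8.9% below 0.667. The medians of the list were 0.986, 1.02 and 1.17.

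Of the 12 genes for glycine supply and breakdown, 11 had a peak at the start in v1, 12 in v2 and 11 in v3. The shares of all protein-coding genes were 77.6%, 82.3% and 77.3%. Gldc, the glycine decarboxylase of the cleavage system, held 32, 43 and 26 peaks, and Phgdh, which opens serine synthesis, 12, 22 and 12. The one without in v1 and v3 was Slc38a5, an amino acid transporter gene on X, whose window had 3, 1 and 0 peaks. Slc32a1, which encodes the transporter that loads GABA and glycine into vesicles, had 7, 9 and 7 peaks with one at the start in every library. In v2 over v1, 1 of 11 genes with enough peaks was above 1.5, against 10% of all protein-coding genes. It was Shmt1, a serine hydroxymethyltransferase gene, at 2.20 (0.758 to 7.72). The 1 below 0.667, against 6.29% of all genes, was Slc7a10, an amino acid exchanger gene, at 0.640 (0.289 to 1.40). In v3 over v1, 1 of 9 was above (13.3% of all genes) and 1 below (6.13%). These were Shmt1 at 3.41 (1.16 to 12.1, from 5 v1 and 14 v3 peaks) and Shmt2 at 0.608 (0.134 to 2.27). In v3 over v2, 1 of 11 was above (13.7% of all genes), Shmt1 at 1.55 (0.694 to 3.45), and 0 below (8.9%). Of these intervals, only that of Shmt1 in v3 over v1 excluded 1. Nlgn4l, Insyn1, Slc38a5, Slc32a1, Shmt1, Shmt2 and Slc7a10 are named after their values were seen. The medians were 1.10, 1.22 and 1.04. Glra4, the remaining alpha subunit gene, on X at 136754515 to 136780141, held 10, 11 and 8 peaks, with share ratios of 0.805 (0.310 to 2.11), 0.973 (0.334 to 2.74) and 1.21 (0.422 to 3.30) in v2 over v1, v3 over v1 and v3 over v2. All of its window peaks overlapped the span of the long noncoding RNA gene BC065397.

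The label of whole brain was set against marker genes. Of 20 markers of neurons, astrocytes, oligodendrocytes, microglia and endothelial cells, 19 had a peak at the start in v1 (all but the endothelial gene Pecam1) and all 20 in both other libraries. Among all protein-coding genes, 77.6% (v1), 82.3% (v2) and 77.3% (v3) had one, so these counts are a weak check of the label. Of 4 liver markers, the apolipoprotein gene Apoa1 had one in each library and Alb, Serpina1a and Cyp2e1 had none.

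For each member, the protein-coding gene with the most similar peak shares over the 3 libraries was found among genes of like window length, by Euclidean distance of log2 shares. Glra2 was nearest to Ctps2, a CTP synthase gene also on X, with 20, 45 and 14 peaks (distance 0.294 among 1181 candidates), the largest distance of the 7. Glra3 was nearest to Wdr49 with 40, 54 and 20 peaks (0.167 among 1243). Glrb was nearest to Rasgrp1 with 37, 47 and 38 peaks (0.0488), and Gphn to Prickle2 with 161, 219 and 152 (0.129 among 409). Glra1 was nearest to Gucy1b2 (20, 25 and 18), Slc6a5 to Fam120b (20, 21 and 16) and Slc6a9 to Gpr160, which had the same 13, 23 and 16 peaks. This likeness rests on 3 counts per gene and describes these lists only.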

How the data were processed

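The authors deposited 1 peak list per library with chromosome, start and end and no score, so the unit is a position in bp. The submitters' processing notes name ArchR, MACS2 and build mm10. Which aligner, versions and thresholds were applied, and whether peaks were called on pooled cells, is not given in the sources used here. A change of calling threshold or depth can change how many narrow peaks enter a list. Gene spans (assembly GRCm38.p6) came from a RefSeq table and starts from a RefSeq promoter table giving 250 bases before to 50 after each start; the start farthest upstream was used. Coordinates are 1-based.

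Peaks overlapping a window by at least 1 bp were counted with Python 3.11.15, numpy 2.4.6, pandas 2.3.3 and scipy 1.17.1. Share ratios have exact conditional binomial intervals, shares Clopper-Pearson intervals and densities Poisson intervals. Folds of 1.5 were read over protein-coding windows holding 10 or more peaks in the pair. The counting and ratio steps were tested on simulated data. The members and lists were chosen with earlier results of these data known. Named were all members, for every list its 2 genes of highest peak number and up to 2 without a peak at the start in any library (there were none; 1 gene that this rule names is not reported here), and for each member the gene with the nearest log2 shares (pseudocount of 0.5 peaks, window length within 1.5 times, at least 30 peaks). Alternatives covered flanks, peak width, covered length, the denominator, the overlap rule, peaks over other genes and the distance to the start. Of the alternatives, 2 on the choice of starts were added after seeing the data.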

Additional observations from a re-analysis of the deposited data

How the results depend on the processing

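The share ratios of the 7 members together stayed within their intervals under every alternative run, apart from v3 over v2 without Gphn, at 0.898. Without Gphn v3 over v1 turned from 1.10 to 0.948. Of 126 alternative values for single members, 125 stayed inside the main interval. The exception was Glra2 in v3 over v1, at 1.97 with peaks wider than 500 bp, from 3 v1 and 7 v3 peaks. The main intervals are wide, so staying inside one does not show that a ratio was stable. With wider peaks, Glra2 in v2 over v1 moved from 1.46 to 2.51 and still lay inside its interval. All 7 members kept a peak at the start with 500 bp, 2 kb, wider peaks and any listed start, and all 6 did so when only listed starts were used.

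Counts of members past the fold rest on few genes and moved easily. In v2 over v1, 1 member was above with wider peaks (Glra2) and 1 below with gene spans alone (Slc6a5). With the lower fold limit planned as an alternative, 2 were above and 1 below. In v3 over v1, 1 was above with gene spans alone, with a flank of 20 kb and without peaks over other genes (Slc6a9 in each). With wider peaks 1 was above (Glra2), and 2 were with the lower limit. Without peaks over other genes, Glra2 and Glra3 stayed below. The count below was 1 with gene spans alone, a 20 kb flank or the own chromosome as denominator (Glra2 in each), and 0 with wider peaks or covered length. In v3 over v2, 1 was above with wider peaks or the own chromosome as denominator (Glrb in both) and 3 with the lower limit. Glra2 and Glra3 were the 2 below 0.667 in v3 over v2 with gene spans alone, a 20 kb flank, covered length and the own chromosome, and 0 were with wider peaks. The cause was not tested. At the lower limit, 20.7%, 26.8% and 33.7% of all genes were above in v2 over v1, v3 over v1 and v3 over v2, and 21.5%, 13.6% and 16.3% below. With the own chromosome as denominator, 9.81%, 13.6% and 13.7% were above 1.5 and 6.54%, 6.97% and 9.16% below 0.667.

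The share of regions in all 3 libraries fell to 28.7% when each library had to cover 50% of the region, which lowered all regions to 29.5%, and to 27.6% with wider peaks, where all regions stood at 36.5%. With wider peaks 28.9% of peaks lay in the first 20% of the gene in v1 and 30.1% in v3. The first 10% held 10.9% (7.51 to 15.3) for v1, 8.66% (6.04 to 11.9) for v2 and 13.9% (9.87 to 18.8) for v3. Genes of at least 50 kb had 8.93%, 8.69% and 9.52%, so in v3 the interval lay above theirs. These intervals treat the peaks of 6 genes as independent. Depth is unknown, so a region without a peak in a library may have been missed there.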

Other observations

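The longest stretch without a peak in any library differed among the members. In Glra1 it ran for 22511 bp, from 55543704 to 55566214 of chromosome 11, which is 24.0% of the span. In Glra2 it was 16185 bp (8.14%) and in Glra3 11566 bp (6.10%). In Slc6a5 it was 6564 bp (11.5%) and in Slc6a9 4312 bp (12.7%), directly after the peak over the first start. In Glrb, the member with the most peaks per 100 kb, no stretch was longer than 2718 bp (3.88%). In Gphn, whose span is by far the longest, none was longer than 7519 bp (1.61%).

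Across the downstream end of Slc6a9, the peaks of the 3 libraries merged into 1 region of 6568 bp, at chromosome 4, 117867450 to 117874017, the widest merged region over any of the members, with 5594 bp under v1 peaks, 6081 bp under v2 peaks and 5046 bp under v3 peaks. It overlaps the genes Ccdc24 and B4galt2.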
